A study of Mus musculus with 3 samples.

Results

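Bone morphogenetic protein (BMP) signalling was described in mouse bladder and in bladder assembloids through 10 of its genes, chosen by symbol from the 31053 mouse genes of the deposited count matrices. They are the ligands Bmp2, Bmp4, Bmp5 and Bmp7, the receptor gene Bmpr1a, the antagonists Bambi and Grem1, and the target genes Id1, Id2 and Id3, and 10 of 10 were present in each library. Each was followed in urothelial-like, fibroblast-like, endothelial-like and muscle-like cells, which were told apart by the UMIs (unique transcript tags) of marker genes. The study had 3 libraries of single cells and 1 library per group: assembloids after 7 days of reconstitution, pooled from 3 assembloids, assembloids after 1 day, pooled from 3 assembloids, and bladder of wild-type C57BL/6 mice (8 bladders in 1 pool, age 8 to 9 weeks). The labels state no strain or age of mouse for the assembloids and name no treatment or engineered allele in any group. A bladder assembloid is a cultured construct in which urothelial organoids are rebuilt together with stromal cells. Because each group had 1 library, no test between groups was possible, and the 95% intervals in brackets cover counting error only, not the spread between pools.

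BMP ligands are secreted factors that bind type I receptors such as BMPR1A together with type II receptors, which leads to phosphorylation of SMAD1, SMAD5 and SMAD9 and to transcription of target genes, among them the Id genes. Secreted antagonists such as gremlin bind the ligand before it reaches the receptor, while BAMBI is a receptor-like membrane protein without a kinase domain that blocks signalling at the receptor. In the mouse bladder, hedgehog ligand from basal urothelium is known to act on stromal cells, and stromal BMP4 and BMP5 are known to act back on the urothelium and to promote its differentiation.

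The 7-day, 1-day and bladder libraries kept 8172, 8258 and 6775 mouse cells, with medians of 9399, 14937.5 and 7543 UMIs per cell. Urothelial-like cells numbered 2108 at 7 days, 1435 at 1 day and 2692 in bladder, and fibroblast-like cells 2151, 1386 and 1479 in the same order of libraries. Endothelial-like cells numbered 915, 443 and 1075, muscle-like cells 486, 345 and 486, and cells of no class made up 28.0%, 54.6% and 11% of the kept cells. Within each class the bladder and 1-day libraries lay mainly in different clusters: bladder urothelial-like cells lay in clusters 0 and 1 and 1-day cells in 5 and 14, bladder fibroblast-like cells in 4 and 15 and 1-day cells mainly in 2, 3, 6, 7, 8 and 9, bladder endothelial-like cells in 16, 18, 20 and 22 and 1-day cells in 12 and 22, and bladder muscle-like cells in 10 and 26 and 1-day cells mainly in 3 and 19. The 7-day cells lay in both sets. Urothelial-like and endothelial-like cells had all 8 of their markers at least 2-fold over the other cells of their library in each library. For fibroblast-like cells the median of that fold over 8 markers was 7.34 at 7 days, 2.71 at 1 day and 206 in bladder, and for muscle-like cells it was 4.82, 2.61 and 85.1, so these 2 classes were less distinct in assembloids. The 7-day library also held cells of both kinds of profile: 53.2% of its cells had at most 5% bladder cells among their 30 nearest cells of the other libraries (assembloid-side cells, median 19924 UMIs), and 43.9% had at least 95% (bladder-side cells, median 3342.5 UMIs). The labels do not mention such cells, so for many of the 7-day levels that of assembloid-side cells is given as well. Libraries shared 19 to 24 cell barcodes per pair.

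Levels are given in CPM, the UMIs of a gene summed over the cells of a class, divided by all mouse UMIs of those cells and multiplied by 1e+06. A gene counted as measured in a comparison where either library had 20 CPM or more, and as past 2-fold where the ratio was at least 2-fold and its counting interval excluded 1. Since the assay counts the 3′ ends of transcripts, a level is compared for 1 gene between cells and libraries, and not between genes.

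**Figure D1:**
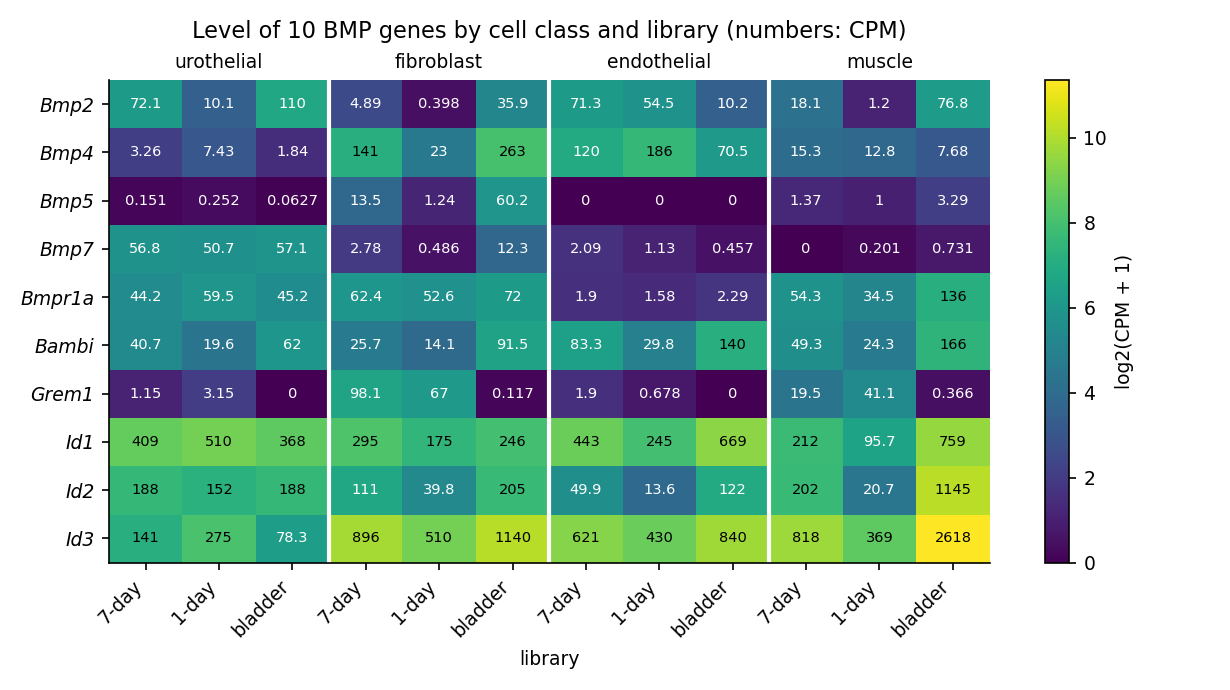
CPM of the 10 genes (rows, with ligands at the top and Id genes at the bottom) in 4 cell classes and 3 libraries (columns); colour gives log2(CPM + 1) and the printed numbers give CPM. Grem1 is near 0 in the bladder columns, and among muscle-like cells the Id genes are lowest at 1 day.

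Bmp4 (ENSMUSG00000021835, mm10 chromosome 14, 46383520 to 46390669, minus strand) is a ligand made by mesenchyme and endothelium. Among the 4 classes it was highest in fibroblast-like and endothelial-like cells in each library. In fibroblast-like cells it reached 141 CPM at 7 days, 23.0 CPM at 1 day and 263 CPM in bladder. The 1-day level was thus the low one, with a log2 ratio to bladder of −3.51 [−3.66 to −3.38], and the 7-day level lay between the others, with a log2 ratio to the 1-day library of 2.61 [2.48 to 2.75]. Assembloid-side fibroblast-like cells of the 7-day library had 129 CPM, a log2 ratio to 1-day cells of 2.49 [2.36 to 2.62], so the difference between the assembloid ages was about as large without the bladder-side cells. Cells of no class held 95.2, 24.5 and 46.1 CPM in the 7-day, 1-day and bladder libraries. They held 51.7%, 59.0% and 6.18% of all Bmp4 UMIs, against 40.6%, 14.5% and 73.3% in fibroblast-like cells. In endothelial-like cells the order of the libraries was another one, with 120.1 CPM at 7 days, 186 CPM at 1 day and 70.5 CPM in bladder. There the 1-day library was the high one, with a log2 ratio to bladder of 1.40 [1.23 to 1.57]. Assembloid-side endothelial-like cells had 159 CPM, a log2 ratio to bladder of 1.17 [0.99 to 1.35]. Urothelial-like and muscle-like cells had 1.84 to 15.3 CPM of Bmp4 in the 3 libraries, under the level needed to be measured.

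Shares of cells with a Bmp4 UMI, with each cell thinned to 2500 UMIs and shallower cells left out, gave the same order in fibroblast-like cells: 27.1% of 1658 cells at 7 days, 5.75% of 1322 cells at 1 day and 43.2% of 1256 cells in bladder. Without thinning the shares were 43.7%, 17.0% and 64.1%. Thinning left out 493 cells at 7 days, 64 at 1 day and 223 in bladder. In urothelial-like cells, which are not known as a source of Bmp4, the thinned shares were 1.13%, 1.93% and 0.490%. Median depths before thinning were 12011, 16247 and 5791 UMIs in fibroblast-like cells and 8349, 4848 and 21260.0 UMIs in urothelial-like cells.

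Clusters, built without the BMP pathway genes and counted here with their unclassed cells, differed in Bmp4 level and in how far it differed between the assembloid ages. Cluster 17, led by Aard, Asz1 and Dkk2, had the highest Bmp4 level, with 658 CPM in 346 cells at 7 days and 347 CPM in 117 cells at 1 day. In cluster 8, led by the mitotic genes Ube2c and Ccnb1, Bmp4 was at 257 CPM in 295 cells at 7 days and at 33.0 CPM in 689 cells at 1 day. Cluster 6, led by Mmp3 and Saa3, had 83.3 and 44.3 CPM at 7 days and 1 day, and cluster 2, led by Tnfsf15 and Aldh1a3, had 52.7 and 21.6 CPM. The 3 clusters led by Crabp1, by Birc5 and by Spp1 had 6.28 to 20.1 CPM at 7 days and 4.54 to 16.6 CPM at 1 day. Bladder fibroblast-like cells lay in other clusters, which the 7-day library shared: cluster 4, led by Dpt and Clec3b, had 239.6 CPM of Bmp4 at 7 days and 229 CPM in bladder, and cluster 15, led by Car3 and Rbp4, had 382 and 332 CPM.

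**Figure D2:**
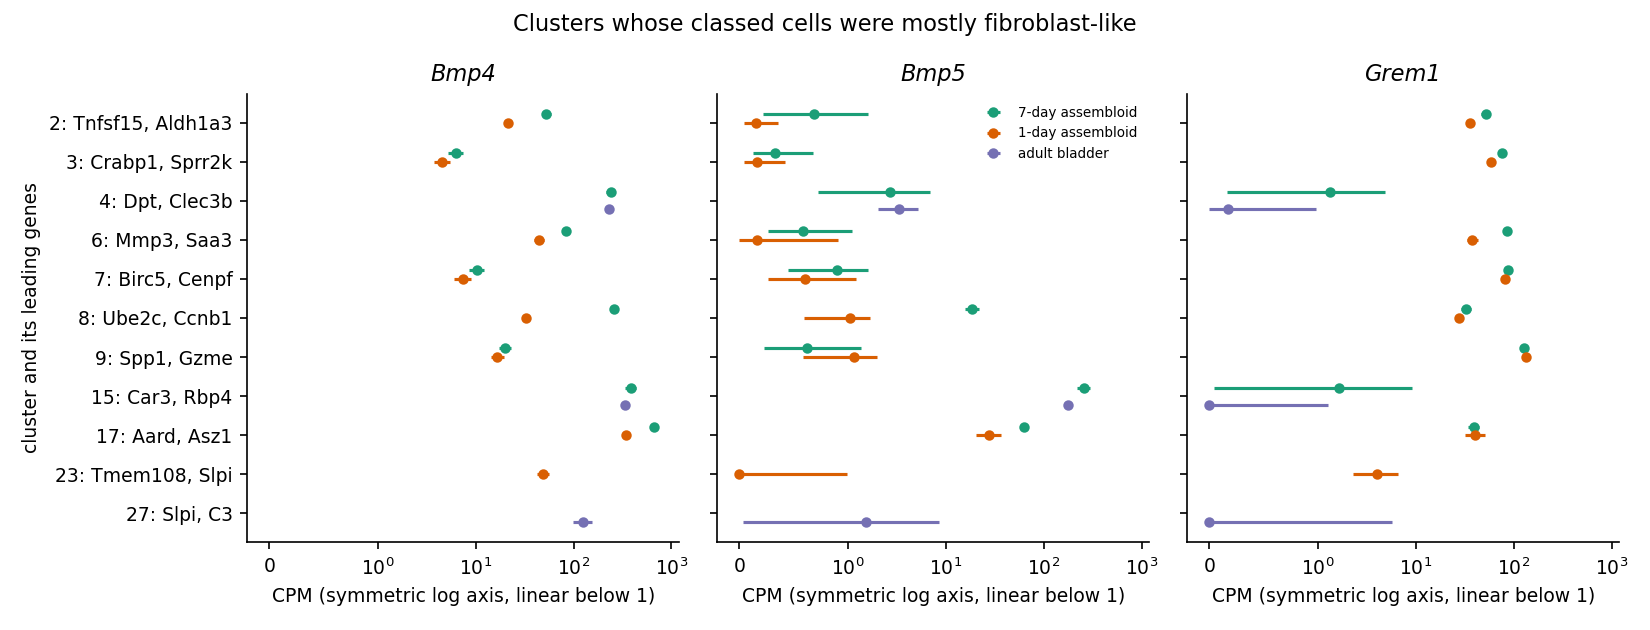
CPM of Bmp4, Bmp5 and Grem1 (symmetric log axis) in the clusters whose classed cells were mostly fibroblast-like, named by number and leading genes, for the libraries with at least 50 cells in the cluster; bars are 95% Poisson intervals. Bmp4 is highest in cluster 17, Bmp5 in cluster 15 and Grem1 in cluster 9, and the bladder points lie in clusters 4, 15 and 27, where Grem1 is at or near 0.

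Bmp5, a ligand close to Bmp7 in sequence and made by mesenchyme (ENSMUSG00000032179, chromosome 9, 75775364 to 75900310, plus strand), was restricted further among the 4 classes. Fibroblast-like cells had 13.5 CPM at 7 days, 1.24 CPM at 1 day and 60.2 CPM in bladder, while the other classes had at most 3.29 CPM and endothelial-like cells had 0 UMIs in each library. Cells of no class had 7.11, 0.731 and 8.01 CPM in the 7-day, 1-day and bladder libraries. They held 49.0%, 64.3% and 5.83% of all Bmp5 UMIs. Against bladder, the log2 ratio in fibroblast-like cells was −2.16 [−2.35 to −1.96] at 7 days and −5.58 [−6.21 to −5.06] at 1 day. Assembloid-side cells of the 7-day library were lower still at 8.48 CPM. Within bladder fibroblast-like cells the gene was concentrated in cluster 15, with 178 CPM, against 3.36 CPM in cluster 4, and the 7-day library had 256 and 2.68 CPM in the same clusters. Cluster 17 of the assembloids held 63.2 CPM at 7 days and 27.5 CPM at 1 day.

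The 250 bases before the annotated starts of Bmp4 and Bmp5 are shown because both genes were lower in 1-day fibroblast-like cells than in those of bladder. The sequences are from RefSeq (build GRCm38.p6), from which the promoter windows of 6 of the 10 genes were taken. Whether RefSeq held windows of the other genes is not stated here. The sequences shown read 5′ to 3′ on the strand of the gene, at chr14:46390670-46390919 (minus strand) and chr9:75775115-75775364 (plus strand).
Bmp4: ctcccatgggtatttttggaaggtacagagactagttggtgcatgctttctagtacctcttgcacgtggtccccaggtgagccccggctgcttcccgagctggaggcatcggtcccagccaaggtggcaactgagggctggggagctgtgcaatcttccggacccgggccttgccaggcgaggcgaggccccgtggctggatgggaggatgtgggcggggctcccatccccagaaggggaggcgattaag
Bmp5: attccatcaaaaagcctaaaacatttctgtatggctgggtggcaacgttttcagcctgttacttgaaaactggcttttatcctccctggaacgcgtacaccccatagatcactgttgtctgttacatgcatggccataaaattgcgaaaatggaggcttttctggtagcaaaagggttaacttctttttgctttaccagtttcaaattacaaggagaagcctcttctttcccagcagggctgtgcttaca
Searched on both strands, neither window held the Gli site GACCACCCA, the Smad palindrome GTCTAGAC or the GC box GGCGCC bound by Smad1 and Smad5. These letters occurred in 0.225%, 0.167% and 9.59% of the 32851 promoter windows of the same length, and their absence here says nothing of binding elsewhere. The Bmp4 window had 63.2% G and C bases and the Bmp5 window 42.8%.

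Bmp2 (ENSMUSG00000027358, chromosome 2, 133552159 to 133562885, plus strand) is a ligand known in the skeleton and in vessels. Among the 4 classes of bladder it was highest in urothelial-like cells, followed by muscle-like cells. Urothelial-like cells had 72.1 CPM at 7 days, 10.1 CPM at 1 day and 110.1 CPM in bladder, a log2 ratio of the 1-day library to bladder of −3.44 [−3.79 to −3.13]. The 7-day level split by side, since assembloid-side cells had 12.2 CPM, close to the 1-day cells, with a log2 ratio of 0.27 [−0.22 to 0.76]. In fibroblast-like cells Bmp2 was at 4.89, 0.398 and 35.9 CPM in the 7-day, 1-day and bladder libraries, and in muscle-like cells at 18.1, 1.20 and 76.8 CPM. Both classes were therefore lower in assembloids of both ages, with log2 ratios to bladder of −2.87 and −6.42 in fibroblast-like cells and of −2.08 and −5.88 in muscle-like cells at 7 days and 1 day. Assembloid-side cells of the 7-day library were lower than the whole library, with 2.0 CPM in fibroblast-like cells and 7.96 CPM in muscle-like cells, or log2 ratios to bladder of −4.16 [−4.62 to −3.74] and −3.25 [−3.88 to −2.70]. Bladder-side fibroblast-like cells had a log2 ratio to bladder of 0.12. Endothelial-like cells went the other way, with 71.3 CPM at 7 days, 54.5 CPM at 1 day and 10.2 CPM in bladder. Their log2 ratio to bladder was 2.80 [2.43 to 3.20] at 7 days and 2.41 [2.02 to 2.83] at 1 day, and assembloid-side cells reached 105 CPM. The level was high in cluster 12, led by the vessel growth gene Apln, with 120.3 CPM at 7 days and 60.5 CPM at 1 day, while the clusters that hold the bladder cells had 5.29 to 22.3 CPM. Whether free RNA contributed to low levels was not tested. Bladder endothelial-like cells, in the library where urothelial Bmp2 was highest, held 10.2 CPM.

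Bmp7, an epithelial ligand in many organs (ENSMUSG00000008999, chromosome 2, 172868012 to 172940321, minus strand), was a urothelial gene and differed little between the libraries. Urothelial-like cells had 56.8 CPM at 7 days, 50.7 CPM at 1 day and 57.1 CPM in bladder. The log2 ratio to bladder was −0.01 [−0.10 to 0.09] at 7 days and −0.17 [−0.32 to −0.02] at 1 day, so a 2-fold difference lies outside both counting intervals. Urothelial-like cells held 88.4%, 90.2% and 96.2% of all Bmp7 UMIs of the 7-day, 1-day and bladder libraries. Elsewhere the gene reached 12.3 CPM in bladder fibroblast-like cells and at most 2.78 CPM in any other class and library.

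**Figure D3:**
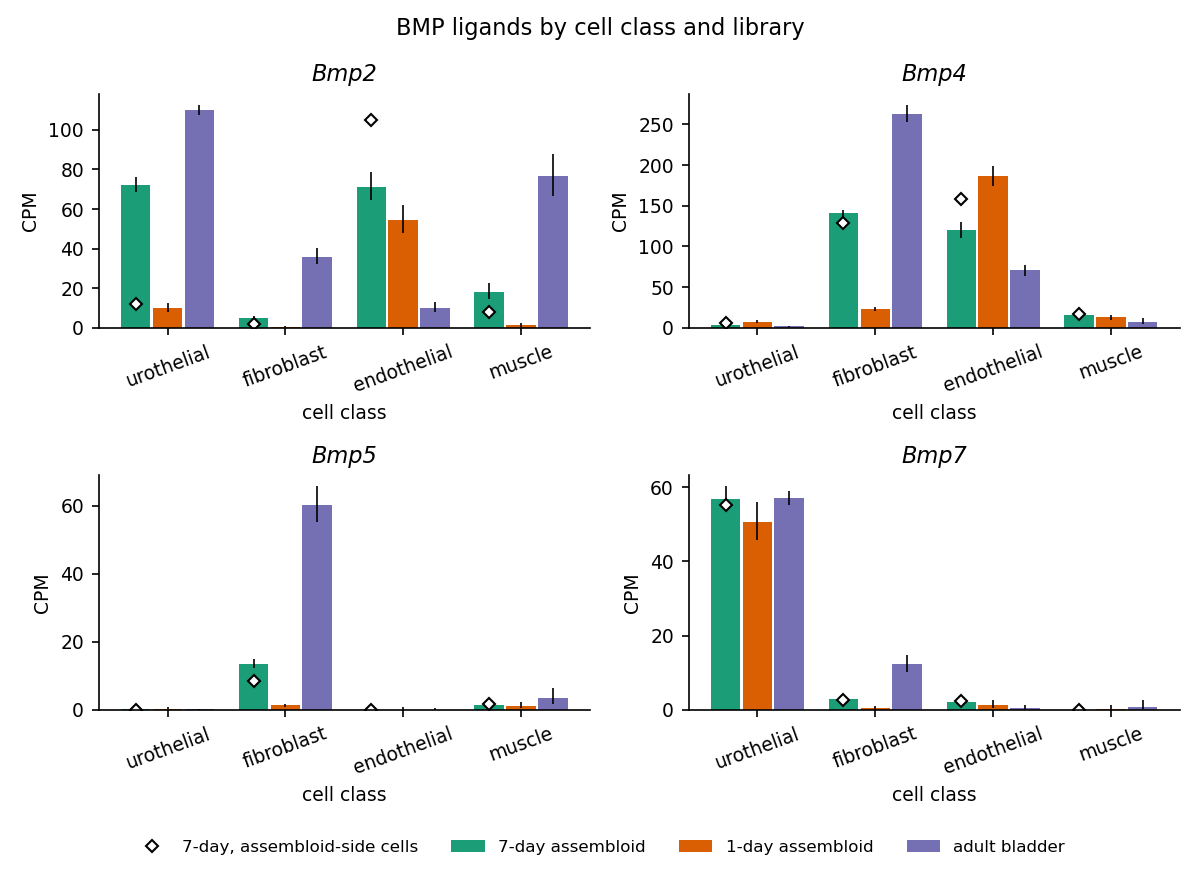
CPM of the 4 ligands by cell class, with bars for the 7-day, 1-day and bladder libraries from left to right, 95% Poisson intervals as lines and diamonds for assembloid-side cells of the 7-day library. Fibroblast-like Bmp4 stands at 141, 23.0 and 263 CPM, endothelial-like Bmp2 is the only Bmp2 group higher in assembloids, and urothelial-like Bmp7 hardly differs.

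Bmpr1a, the type I receptor (ENSMUSG00000021796, chromosome 14, 34410734 to 34503341, minus strand), was present in urothelial-like, fibroblast-like and muscle-like cells. Urothelial-like cells had 44.2, 59.5 and 45.2 CPM at 7 days, 1 day and in bladder, and fibroblast-like cells 62.4, 52.6 and 72.0 CPM. None of these differences reached 2-fold. Muscle-like cells had 54.3 CPM at 7 days, 34.5 CPM at 1 day and 136 CPM in bladder, with log2 ratios to bladder of −1.32 [−1.57 to −1.09] and −1.98 [−2.25 to −1.71]. Endothelial-like cells held only 10, 7 and 15 UMIs, or 1.58 to 2.29 CPM. In these cells another type I receptor gene of the pathway, Acvrl1, known from endothelium, was at 206, 172 and 237 CPM.

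Grem1, the gene of the secreted antagonist gremlin (ENSMUSG00000074934, chromosome 2, 113746164 to 113758646, minus strand), was nearly absent from bladder cells. The bladder library held 2 Grem1 UMIs among all its kept cells, 1 in fibroblast-like and 1 in muscle-like cells. Fibroblast-like cells of the assembloids held 2827 UMIs at 7 days and 1517 UMIs at 1 day, or 98.1 and 67.0 CPM, against 0.117 CPM in bladder. The log2 ratio to bladder was 9.13 [7.23 to 15.02] at 7 days and 8.58 [6.68 to 14.47] at 1 day, with a wide interval since it rests on that 1 UMI. Assembloid-side cells had 106 CPM, and the bladder clusters 4 and 15 had 1.34 and 1.63 CPM in the 7-day library. Grem1 was highest in cluster 9, led by Spp1 and Gzme, with 127 CPM at 7 days and 132 CPM at 1 day, and cluster 17, where Bmp4 was highest, had 39.0 and 40.4 CPM. Muscle-like cells had 19.5 CPM at 7 days, 41.1 CPM at 1 day and 0.366 CPM in bladder, a log2 ratio of the 1-day library to bladder of 6.23 [4.32 to 12.12]. The fibroblast marker list summed to 2046 and 1768 CPM in muscle-like cells of the 7-day and 1-day libraries, against 982 CPM in bladder, and its part in the muscle-like Grem1 level was not tested. Urothelial-like and endothelial-like cells had at most 3.15 CPM in assembloids and 0 UMIs in bladder, which at 3 counts allows up to 0.0471 and 0.457 CPM. Cells of no class had 60.1 CPM at 7 days and 48.1 CPM at 1 day. They held 52.5% and 70.3% of all Grem1 UMIs of these libraries, against 45.5% and 25.7% in fibroblast-like cells.

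The Grem1 promoter window is shown because the gene was near 0 in every class of bladder and present in assembloids; it lies at chr2:113758649-113758898 (minus strand, RefSeq, GRCm38.p6), and the capitals mark a GGCGCC box.
Grem1: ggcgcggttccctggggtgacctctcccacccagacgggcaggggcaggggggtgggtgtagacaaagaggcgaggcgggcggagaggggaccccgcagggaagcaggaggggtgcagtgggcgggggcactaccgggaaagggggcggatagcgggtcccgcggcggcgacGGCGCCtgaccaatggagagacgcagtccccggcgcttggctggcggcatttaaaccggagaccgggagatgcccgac
The box begins 78 bases before the start of transcription. The Grem1 window held neither the Gli site nor the Smad palindrome. The windows of Bmpr1a, Id2 and Id3 are not compared, since all 250 of their bases lie inside the annotated gene.

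Bambi, the membrane antagonist and itself a known target of BMP signalling (ENSMUSG00000024232, chromosome 18, 3507923 to 3516404, plus strand), was lower in assembloids in all 4 classes. In urothelial-like cells it had 40.7 CPM at 7 days, 19.6 CPM at 1 day and 62.0 CPM in bladder. Fibroblast-like cells had 25.7, 14.1 and 91.5 CPM, endothelial-like cells 83.3, 29.8 and 139.5 CPM, and muscle-like cells 49.3, 24.3 and 166 CPM in the same order. At 1 day the log2 ratio to bladder was −1.65 [−1.90 to −1.43] in urothelial-like, −2.70 [−2.89 to −2.51] in fibroblast-like, −2.22 [−2.50 to −1.96] in endothelial-like and −2.77 [−3.08 to −2.48] in muscle-like cells. At 7 days it was past 2-fold in fibroblast-like cells, at −1.83 [−1.98 to −1.69], and in muscle-like cells, at −1.75 [−2.00 to −1.52]. With assembloid-side cells alone the 7-day ratios to bladder were −1.45, −2.22, −1.33 and −2.48 in the 4 classes, so the levels of assembloid-side cells lay closer to those of 1-day cells.

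Id1, Id2 and Id3 encode inhibitors of helix-loop-helix transcription factors and are widely used as readouts of SMAD1 and SMAD5 activity, although other signals also act on them. In muscle-like cells all 3 were low in assembloids. Id1 (ENSMUSG00000042745, chromosome 2, 152736251 to 152737410, plus strand) had 212 CPM at 7 days, 95.7 CPM at 1 day and 759 CPM in bladder. Id2 (ENSMUSG00000020644, chromosome 12, 25093799 to 25097140, minus strand) had 202, 20.7 and 1145 CPM, and Id3 (ENSMUSG00000007872, chromosome 4, 136143497 to 136145755, plus strand) had 818, 369 and 2618 CPM. At 1 day the log2 ratios to bladder were −2.99 [−3.13 to −2.84] for Id1, −5.79 [−6.09 to −5.51] for Id2 and −2.83 [−2.90 to −2.75] for Id3. At 7 days they were −1.84, −2.50 and −1.68, and assembloid-side cells had 99.7, 31.6 and 453 CPM of the 3 genes, near the 1-day levels. With cells thinned to 2500 UMIs, 21.6% of 273 muscle-like cells held a UMI of all 3 Id genes at 7 days, 0.912% of 329 at 1 day and 60.3% of 456 in bladder. Thinning left out 213 shallower cells at 7 days, 16 at 1 day and 30 in bladder. The 7-day share therefore describes the deeper cells only.

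The muscle-like cells of the 1-day library and of bladder lay in different clusters, and the 7-day cells in both sets. Cluster 10, led by the cardiac and smooth muscle gene Pln, held bladder and 7-day cells and had 869.7 and 826 CPM of Id1, 1169.9 and 1182 CPM of Id2 and 3017 and 2966 CPM of Id3 in the 7-day and bladder libraries. Cluster 19, led by Sprr2k, Acta1 and Crabp1, held no bladder cell and had 24.4 and 24.4 CPM of Id1, 10.1 and 7.33 CPM of Id2 and 91.5 and 74.6 CPM of Id3 at 7 days and 1 day. The muscle marker list itself summed to 5828 CPM at 7 days, 4062 CPM at 1 day and 11693 CPM in bladder, with the smooth muscle myosin gene Myh11 at 896, 172 and 4394 CPM, and the pericyte list to 312, 105 and 1101 CPM. The part of these marker differences in the Id levels was not tested. Cluster 25, which held muscle-like cells of assembloids, had more pericyte markers (Higd1b, Rgs4) than muscle markers (Des) among its 10 leading genes. Clusters 23 and 27 of the fibroblast-like cells had mesothelial markers there. Leaving such clusters out moved the count of members past 2-fold by at most 1 in any comparison. Clusters with no class marker among their 10 leading genes were kept, so this setting does not bear on them. Of 1-day muscle-like cells, 37.1% lay in such a cluster, 3, whose classed cells were mostly fibroblast-like, and 40% in another, 19.

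In endothelial-like cells the Id genes had the same order of libraries. Id1 was at 443 CPM at 7 days, 245 CPM at 1 day and 669 CPM in bladder, Id2 at 49.9, 13.6 and 122 CPM, and Id3 at 621, 429.7 and 840.2 CPM. Past 2-fold against bladder were Id1 at 1 day, with a log2 ratio of −1.45 [−1.55 to −1.35], and Id2, with −3.16 [−3.57 to −2.79] at 1 day and −1.29 [−1.50 to −1.09] at 7 days. Assembloid-side cells had 339 CPM of Id1, 16.5 CPM of Id2 and 476 CPM of Id3, lower than the whole 7-day library, and their log2 ratio to bladder was −2.88 [−3.31 to −2.50] for Id2 and −0.98 [−1.08 to −0.89] for Id1. Cluster 20, led by the capillary genes Cd36 and Fabp4, had the highest Id1 level of any endothelial cluster, with 1079 CPM at 7 days and 1119 CPM in bladder. In cells with at least 2 UMIs of lymphatic genes, Id1 was at 451 CPM at 7 days, 462 CPM at 1 day and 571 CPM in bladder, so its 1-day level was closer to bladder there than in cells with no lymphatic UMI, which had 463, 198 and 728 CPM. The lymphatic cells numbered 157, 72 and 267, and the difference between these splits was not tested.

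Fibroblast-like cells had 295, 175 and 246 CPM of Id1 at 7 days, 1 day and in bladder, with no difference past 2-fold. Id2 had 111, 39.8 and 205 CPM, and Id3 had 896, 510.1 and 1139.9 CPM. Both were past 2-fold at 1 day against bladder, with log2 ratios of −2.36 [−2.48 to −2.25] and −1.16 [−1.20 to −1.12]. Between 7 days and 1 day Id2 was the Id gene past 2-fold, with a log2 ratio of 1.47 [1.37 to 1.58], and of 1.36 [1.25 to 1.47] with assembloid-side cells alone. Assembloid-side cells had 296 CPM of Id1 and 864 CPM of Id3, against 175 and 510.1 CPM at 1 day.

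Urothelial-like cells differed from the other classes in Id3, which was higher in assembloids. It had 141 CPM at 7 days, 275 CPM at 1 day and 78.3 CPM in bladder, a log2 ratio of the 1-day library to bladder of 1.81 [1.74 to 1.88]. Assembloid-side cells had 284 CPM, while bladder-side cells of the same library had 90.2 CPM. Id1 had 409, 509.8 and 368 CPM and Id2 188, 152 and 188 CPM, with no difference past 2-fold. All 3 Id genes were higher in cells rich in the basal keratin gene Krt5. At 7 days this split mixed 617 assembloid-side and 1472 bladder-side cells, and the part of the sides in it was not tested. In the 25% of cells with the highest Krt5 share, Id1 was at 539 CPM at 7 days, 667 CPM at 1 day and 433 CPM in bladder, against 326, 279.5 and 333 CPM in the 25% with the lowest. At 1 day 428 cells had no Krt5 UMI, and the 358 cells of the lowest share were the first of these in file order. For Id3 the cells with the highest share had 242, 409 and 114 CPM and those with the lowest 107, 151 and 61.3 CPM. Bmp2 had the opposite order in each library, with 53.7, 4.98 and 99.8 CPM in the cells with the highest share and 69.3, 13.1 and 125 CPM in those with the lowest. The 1-day levels rest on 10 and 24 UMIs, and their counting intervals overlap. Among assembloid clusters, cluster 14, led by Trf, Krt4 and Gpx2, had 753 and 801 CPM of Id1 at 7 days and 1 day, against 413 and 391 CPM in cluster 5, led by Fxyd4 and Ghrh. Bladder urothelial-like cells fell into cluster 0, led by uroplakin genes, with 597 CPM of Id1, and cluster 1, led by Areg and Krt23, with 185 CPM, and the 7-day cells of these clusters had 581 and 204 CPM.

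**Figure D4:**
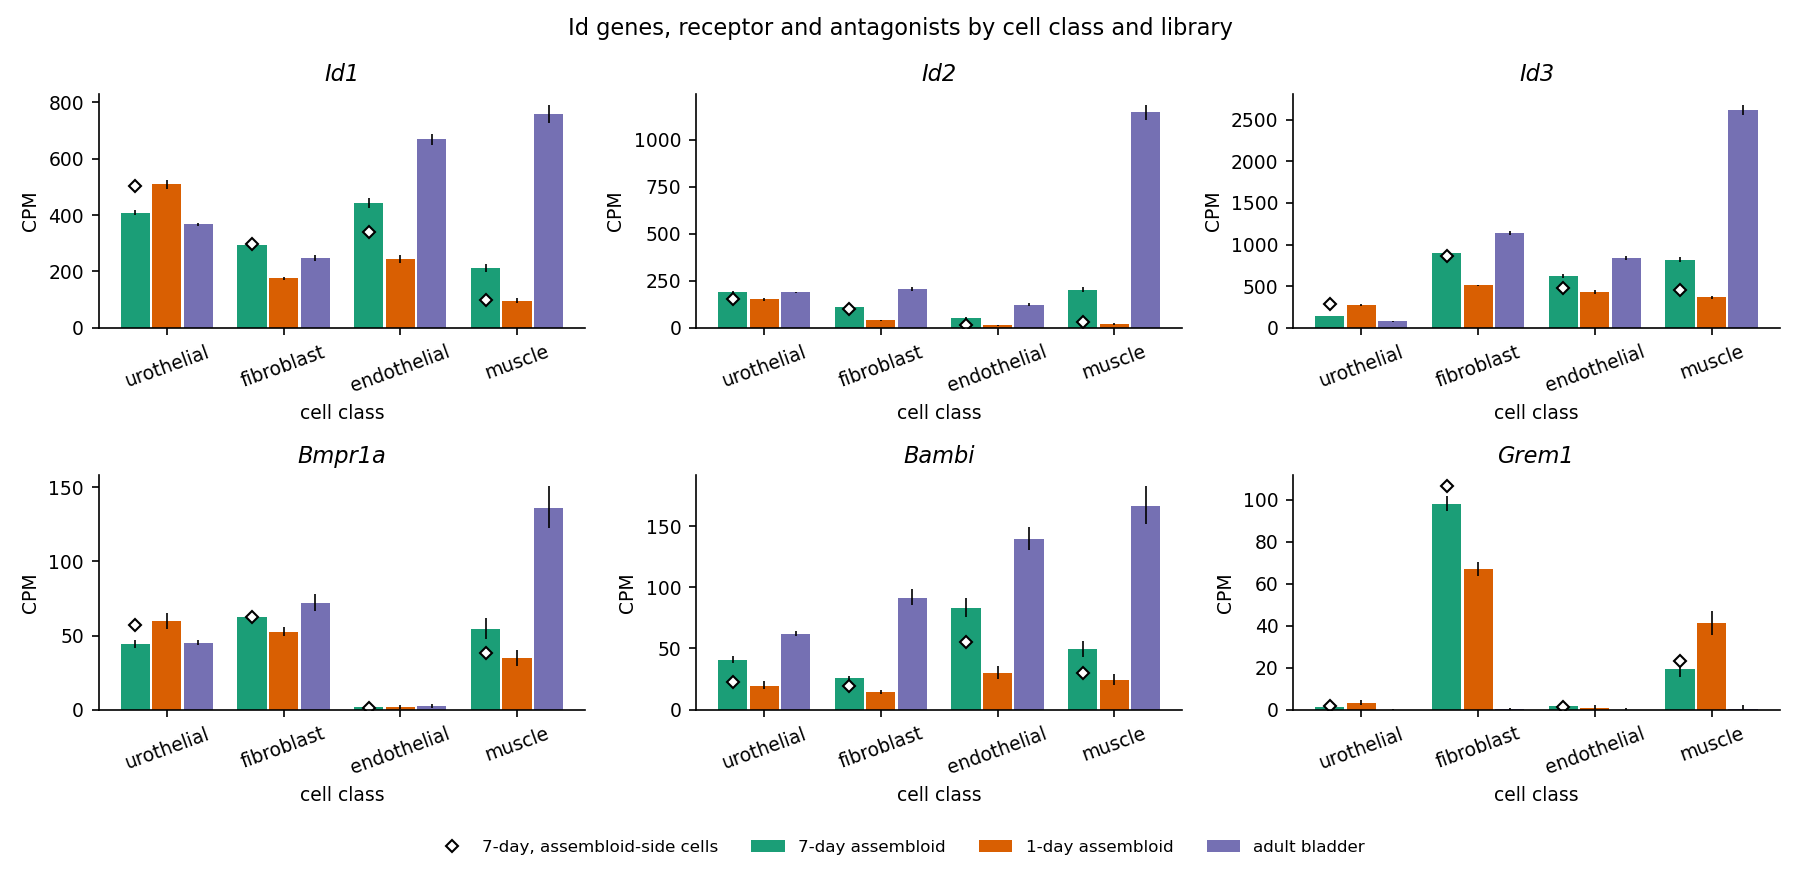
CPM of the Id genes, Bmpr1a, Bambi and Grem1 by cell class, with bars for the 7-day, 1-day and bladder libraries from left to right, 95% Poisson intervals as lines and diamonds for assembloid-side cells. Muscle-like Id2 stands at 202, 20.7 and 1145 CPM, Grem1 is near 0 in bladder, and Id3 in urothelial-like cells is highest at 1 day.

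Counted over the members, the 7-day library differed from bladder in all 6 members measured in muscle-like cells and in 0 of the 7 measured in urothelial-like cells. In muscle-like cells 6 of 6 were lower past 2-fold and 0 were higher, beside 20.5% lower and 18.5% higher among all genes measured. With a mean of per-cell CPM in place of summed UMIs, which weighs the shallow bladder-side cells more, 0 of these members were past 2-fold. Muscle-like Grem1 was at 19.5 CPM at 7 days, just under the 20 CPM needed to be measured, and is not among the 6. Its log2 ratio to bladder was 5.16 [3.22 to 11.05]. In assembloid-side muscle-like cells it had 23.1 CPM and a log2 ratio of 5.40 [3.46 to 11.30]. In fibroblast-like cells 1 of 9 measured members was higher (Grem1) and 3 were lower (Bmp2, Bmp5 and Bambi), beside 14.1% higher and 15% lower among all genes. In endothelial-like cells 1 of 6 was higher (Bmp2) and 1 lower (Id2), beside 12.2% and 10.7%. In urothelial-like cells 1.44% of all genes were higher and 0.0198% lower. With assembloid-side cells alone, 3 urothelial-like members were past 2-fold (Bmp2 and Bambi lower, Id3 higher), beside 17.5% of all genes in either direction.

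The 1-day library differed from bladder in more members. In muscle-like cells 1 of 7 measured members was higher (Grem1) and 6 were lower, beside 22.2% higher and 24.7% lower among all genes. In fibroblast-like cells 1 of 9 was higher (Grem1) and 6 were lower (Bmp2, Bmp4, Bmp5, Bambi, Id2 and Id3), beside 18.8% higher and 18.7% lower. In endothelial-like cells 2 of 6 were higher (Bmp2 and Bmp4) and 3 lower (Bambi, Id1 and Id2), beside 22.6% and 22.3%. In urothelial-like cells 1 of 7 was higher (Id3) and 2 were lower (Bmp2 and Bambi), beside 11% and 7.04%. The median log2 ratio of the measured members was −2.83 in muscle-like, −2.36 in fibroblast-like, −1.21 in endothelial-like and −0.17 in urothelial-like cells, where that of all genes measured was 0.04, 0.15, 0.10 and 0.23.

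Between the assembloid ages, 4 of 6 members measured in muscle-like cells were higher at 7 days than at 1 day (Bambi and the 3 Id genes) and 1 was lower (Grem1), beside 4.64% higher and 0.109% lower among all genes. Fibroblast-like cells had 2 of 7 higher (Bmp4 and Id2) and 0 lower, beside 3.05% and 0.175%. Endothelial-like cells had 2 of 6 higher (Bambi and Id2) and 0 lower, beside 8.05% and 1.8%, and urothelial-like cells had 2 of 7 higher (Bmp2 and Bambi) and 0 lower, beside 4.28% and 4.1%. With assembloid-side cells alone, 0 members were past 2-fold in urothelial-like, endothelial-like and muscle-like cells, beside 0.108%, 2.11% and 0.491% of all genes in either direction. In fibroblast-like cells 2 members were, again Bmp4 and Id2, beside 1.67%. Outside fibroblast-like cells the members past 2-fold between ages were thus seen with the bladder-side cells included.

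**Figure D5:**
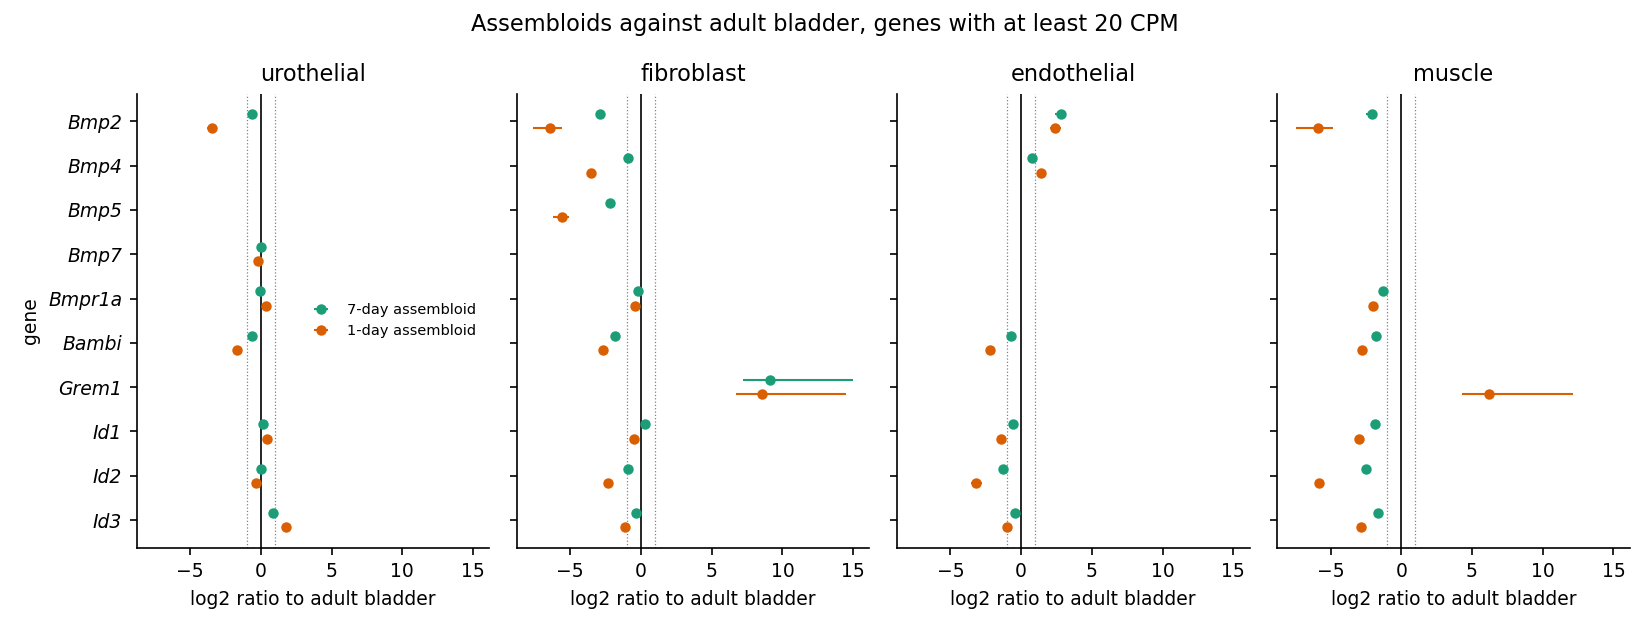
Log2 ratios to adult bladder (points, with 95% exact intervals as lines) of the members measured in each cell class, for 7-day assembloids (upper point of each pair) and 1-day assembloids (lower point); dotted lines mark 2-fold. Bambi lies left of 0 in all 4 classes and endothelial-like Bmp2 lies right of it. Grem1 has the longest intervals because bladder held 1 UMI in each class where it was measured (fibroblast-like and muscle-like).

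The 39 other genes of the pathway were also lower more often than higher in the stromal classes. In fibroblast-like cells 23 were measured against bladder, of which 2 were higher and 13 lower at 7 days, and 3 were higher and 12 lower at 1 day. Among all genes measured there, 14.1% were higher and 15% lower at 7 days, and 18.8% and 18.7% at 1 day. Nbl1, a secreted BMP antagonist of the DAN family, was at 207 CPM at 7 days, 78.2 CPM at 1 day and 1553 CPM in bladder. The ligand gene Bmp6 had 5.34, 1.94 and 45.2 CPM and the ligand gene Bmp3 had 2.88, 0.265 and 24.2 CPM. Fst, the gene of follistatin, which binds activins and BMPs, was higher in assembloids, with 115, 114 and 55.6 CPM, and was named after its values were seen. In endothelial-like cells 1 of 17 was higher and 4 were lower at 7 days, and 1 was higher and 9 lower at 1 day, beside 12.2% and 10.7% of all genes at 7 days and 22.6% and 22.3% at 1 day. With assembloid-side cells alone, 1 was higher and 9 were lower at 7 days. No share of all genes is given for that comparison, so this count is not read as a result about the pathway. Hey1, a target of Notch and BMP signalling, had 48.0, 4.97 and 114 CPM in endothelial-like cells, and Fst had 31.9, 52.9 and 4.57 CPM. In muscle-like cells 2 of 18 were higher and 7 lower at 7 days, and 2 were higher and 8 lower at 1 day, beside 18.5% and 20.5% of all genes at 7 days and 22.2% and 24.7% at 1 day. There Id4 was at 62.5, 18.7 and 209.6 CPM and Fst at 107, 117 and 17.9 CPM. In urothelial-like cells 8 were measured, with 0 past 2-fold at 7 days and 1 lower at 1 day, the homeobox target gene Msx2, at 27, 14.5 and 36.5 CPM, beside 7.04% of all genes lower at 1 day. Between 7 days and 1 day, 2 of 18 fibroblast-like, 4 of 12 endothelial-like, 2 of 13 muscle-like and 0 of 8 urothelial-like genes were higher and 0 were lower in each class, beside 3.05%, 8.05%, 4.64% and 4.28% of all genes higher. With assembloid-side cells alone 1 of 18 fibroblast-like (Gdf10), 0 of 10 endothelial-like, 1 of 12 muscle-like (Id4) and 0 of 7 urothelial-like genes were higher, so the 4 endothelial-like genes were past 2-fold with the bladder-side cells included. The median log2 ratio of the measured pathway genes at 1 day against bladder was −1.46 in fibroblast-like, −1.03 in endothelial-like, −0.85 in muscle-like and −0.07 in urothelial-like cells, where that of all genes measured was 0.15, 0.10, 0.04 and 0.23.

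Over the 12 profiles of 4 classes in 3 libraries, the gene of the most similar pattern was sought for each member by Pearson's r of log2(CPM + 5) among 8977 genes. The 12 profiles share libraries, depth and cells, so r is a description. The closest gene was Sfrp2 for Bmp5 (r = 0.997), Meis1 for Bmpr1a (0.984), Arhgap20 for Bmp4 (0.976) and Ppp1r15a for Bambi (0.975). For Id2 it was Fyco1 (0.939), for Bmp2 Endod1 (0.934) and for Id1 Itpr1 (0.928). Among the members themselves r ran from −0.79 for Bmp2 with Grem1 to 0.64 for Id1 with Id2. Id1 and Id3 had an r of 0.16, so the Id genes did not share 1 pattern across classes.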

How the data were processed

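Single cells of 7-day assembloids, 1-day assembloids and adult bladder were captured with 10x Genomics 3′ chemistry, version 3, per the labels. Each deposited matrix holds UMI counts with no normalization by the authors; per the file headers they came from Cell Ranger 3.1.0, and the submitters' processing notes name the builds GRCh38, mm10 and hg38. Kept were barcodes with 90% or more mouse UMIs, 500 or more genes, less than 20% of UMIs from mitochondria and no Scrublet call (scanpy 1.11.5; 2.41%, 3.28% and 3.39% of cells removed at 7 days, 1 day and in bladder). A cell took the class with the highest score over 8 markers, each capped at 5 UMIs, where the score was at least 3, came from at least 2 markers and was at least 2 times the next. Near that cut (under 3 times the next) were 508, 701 and 37 fibroblast-like and 180, 186 and 168 muscle-like cells.

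UMIs were summed per class and library and log2 ratios computed with 0.5 counts added. The share of all genes past 2-fold used the ratio alone. Poisson, conditional and Clopper-Pearson intervals cover counting error only. The 9548, 9039 and 8642 barcodes held 120301672, 135955678 and 93560608 UMIs. Clusters came from leidenalg 0.10.2 on 30 principal components of 2000 genes. The interval code was tested on simulated data. Gene positions are from GENCODE vM21 (mm10). Members, lists and splits were chosen with earlier results of these data known. All members were named; of the pathway genes, up to 4 per comparison by absolute log2 ratio. The closest gene by r was found for each member; those of Bmp7, Grem1 and Id3, and a planned split of fibroblast-like cells, are not reported here.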

Additional observations from a re-analysis of the deposited data

Results flagged for a closer look

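Some members moved in opposite directions in different classes under the same contrast, and the difference between classes was not tested, since each group had 1 library. Bmp2 in 7-day assembloids against bladder had a log2 ratio of 2.80 in endothelial-like cells, −2.87 in fibroblast-like cells and −2.08 in muscle-like cells. In 1-day assembloids against bladder, Bmp2 had a log2 ratio of 2.41 in endothelial-like cells and of −3.44, −6.42 and −5.88 in urothelial-like, fibroblast-like and muscle-like cells. Bmp4 in 1-day assembloids against bladder had a log2 ratio of 1.40 in endothelial-like cells and of −3.51 in fibroblast-like cells. Id3 in the same contrast had a log2 ratio of 1.81 in urothelial-like cells, −1.16 in fibroblast-like cells and −2.83 in muscle-like cells.

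Barcodes with at least 90% human UMIs were outside every comparison. Those with at least 1000 UMIs numbered 74 at 7 days, 115 at 1 day and 0 in bladder, and the labels do not mention human cells. Their ID3 level was 310.5 CPM at 7 days and 229.5 CPM at 1 day, their ID1 level 187.9 and 174.8 CPM, and their BMP4 level 20.3 and 23.0 CPM.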

How the results depend on the processing

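No paired analysis was possible because each group had 1 library. With 11 alternatives chosen at the outset and 2 added after seeing the data, 699 recomputed log2 ratios of members were counted as unchanged. A ratio past 2-fold was so counted where it stayed past 2-fold in the same direction, however far it moved. A ratio short of 2-fold had to stay within its counting interval, and 119 of these moved beyond it. Among ratios past 2-fold, 31 fell short of the threshold and 6 changed sign. Sign changes of ratios short of 2-fold were not counted. The counts of members past 2-fold were within 1.5 times their values with 200 genes per cell, a minimum of 5 CPM, doublets kept in, shared barcodes left out, no cap on marker UMIs, a score 4 times the next class, classes from clusters, scaling by the median ratio, and clusters with more markers of another class left out. Other settings moved them, and the cause was not tested except where fewer genes or cells entered by construction. For 7-day against 1-day assembloids, the counts were 0 in urothelial-like, 0 in endothelial-like and 3 in muscle-like cells with a minimum of 100 CPM. With assembloid-side cells they were 0 in each of these 3 classes. With bladder-side cells they were 7 in fibroblast-like and 6 in endothelial-like cells, and with per-cell means 5 in fibroblast-like cells. For 7-day assembloids against bladder, they were 3 in urothelial-like and 4 in endothelial-like cells with assembloid-side cells, and 0 in fibroblast-like, endothelial-like and muscle-like cells with bladder-side cells. Per-cell means gave 2, 1 and 0 in fibroblast-like, endothelial-like and muscle-like cells, and a minimum of 100 CPM gave 0 in fibroblast-like and 1 in endothelial-like cells. For 1-day assembloids against bladder, a minimum of 100 CPM gave 3 in fibroblast-like cells. With bladder-side cells the 7-day log2 ratio to bladder turned to 0.12 for Bmp2, 0.30 for Bmp5 and 0.059 for Bambi in fibroblast-like cells, and to 0.006 for Bmpr1a, 0.12 for Id1 and 0.10 for Id3 in muscle-like cells. Scaling by the median ratio shifted all genes by up to 0.39 on the log2 scale (1-day fibroblast-like cells against bladder). The ratios of Grem1 to bladder have wide intervals, since 2 UMIs were counted there.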
